A study of Mus musculus with 24 samples.

Results

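Infarcted heart tissue of IGF1-treated mice was compared between 48 h and 24 h after reperfusion. Both times lie within the infusion of IGF1. The samples were those titled as infarct area with IGF1 at these times, 4 at 48 h and 4 at 24 h, so 8 of the 24 samples of the series. The mice were male C57BL6/J, and their left anterior descending coronary artery was closed for 45 min and then reopened. All 8 received recombinant insulin-like growth factor 1 (IGF1), given as a subcutaneous bolus of 40 ng/g when the artery was reopened and as an infusion of 1 µg/g daily, by implanted osmotic pump, over the first 3 days. Their tissue was the area at risk in the anterior wall, and its total RNA was hybridised in 1 colour to arrays of the Agilent SurePrint G3 Mouse GE 8x60K design, with 1 sample on each array. The 8 vehicle samples of the same times (4 at 24 h and 4 at 48 h), whose labels name the same ischemia and a carrier of PBS with bovine serum albumin, are used beside them. The series design text calls the controls sham-operated, while the sample labels name 45 min of ischemia, and the sample labels were followed. The labels give no age and do not say which samples came from separate animals. The p-values then reflect only how far samples spread within the groups of all 24 samples. That spread may in part be technical.

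IGF1 is a peptide hormone that acts through the IGF1 receptor, a tyrosine kinase that activates the PI3K-AKT and ERK pathways. AKT phosphorylates FoxO transcription factors and keeps them out of the nucleus, which lowers the transcription of atrophy genes such as Fbxo32. After an infarct, neutrophils enter the tissue first, monocytes follow and become macrophages that clear debris, and fibroblasts then divide, become myofibroblasts and lay down collagen in place of the lost muscle. Surviving cardiac muscle normally draws most of its energy from the oxidation of fatty acids.

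Expression levels are log2 processed signals from which the 75th percentile of each array was subtracted, so that 0 is the level of the 75th percentile probe and 1 unit is a 2-fold step. The 75th percentile signal lay between 372 and 622 over the 24 arrays, between 52.8 and 62.9% of spots were well above background, and 0 spots were saturated. Correlations of the levels across genes, which are not independent replicates, were 0.984 to 0.993 between arrays of the same IGF1 group and 0.969 to 0.982 between arrays of the 24 h and the 48 h group. All 26 measured genes of the cardiac sarcomere list, which check the labelled heart tissue, were fitted, and myoglobin (Mb) was well above background on all 4 arrays of both groups. Of 13 genes of liver, lung and thymus, 8 had no probe that both passed the filter on dim probes and matched a gene symbol. Among them were Alb, Ttr and Sftpc. Of the 5 measured, 1 was called higher at 48 h. The 24 h IGF1 replicates 1 to 4 were on slides 1, 2, 3 and 4, and those of 48 h on slides 2, 2, 3 and 3. In both groups replicates 1 and 2 were scanned on 1 day and replicates 3 and 4 on another. A fit of only the slides that hold both groups keeps just replicates 2 and 3 of 24 h. A call can then be lost through fewer arrays alone. Some arrays stood apart within their group and are named beside the results they touch. Replicate 1 at 24 h was high in genes of energy metabolism, replicates 3 and 4 at 24 h were high in chaperones of the endoplasmic reticulum, replicate 4 at 48 h was high in interferon-stimulated genes, and replicate 4 at 24 h and replicate 3 at 48 h were high in mesothelial genes.

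A large share of the genes measured differed between the times. Of 15875 genes tested with limma, 5964 (37.6%) had a Benjamini-Hochberg adjusted p below 0.05, the threshold for a call used throughout; 2583 (16.3%) were higher at 48 h and 3381 (21.3%) were lower. Changes of more than 2-fold ran mostly upward, with 747 genes higher and 244 lower. In 2487 genes (15.7%) every 48 h array was above every 24 h array, and in 3328 (21%) every 48 h array was below. The median log2 difference over all genes was -0.08. Lists of genes are read against these shares, also where the count of a list is given without them. In whole tissue, fewer cells of a type and less RNA per cell cannot be told apart, and this holds for every list of cell type genes.

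**Figure D1:**
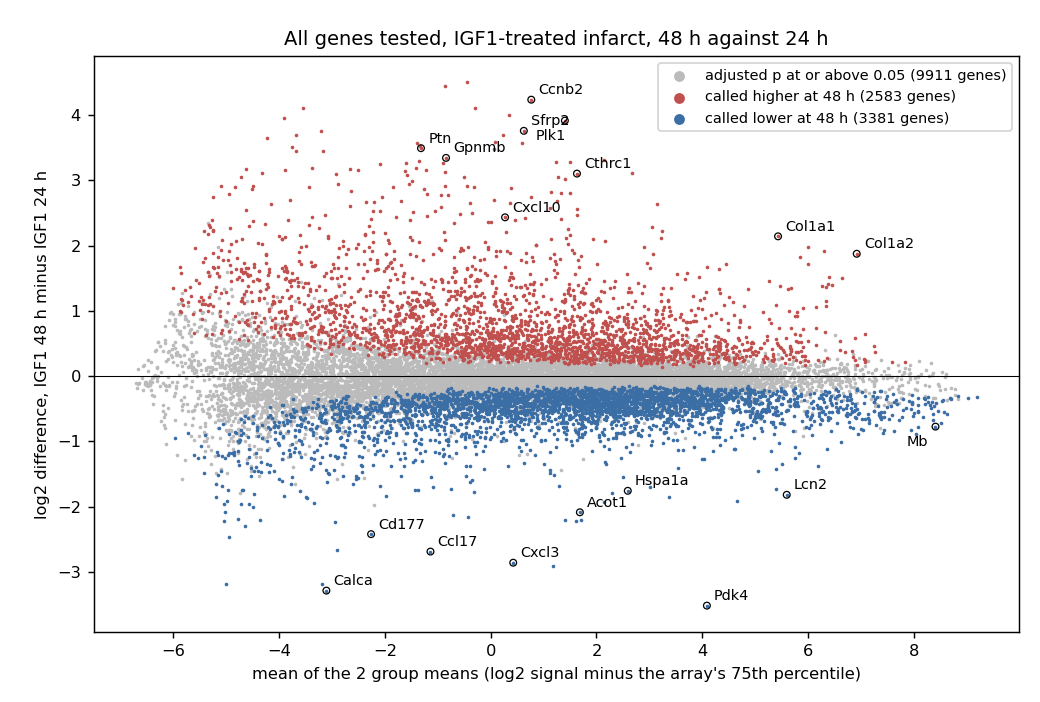
Each point is 1 of 15875 genes, with the mean of its 24 h and 48 h group means on the x axis and the log2 difference (48 h minus 24 h) on the y axis; colours mark the 2583 genes called higher and the 3381 called lower. The labelled genes reach from Pdk4 at -3.51 to Ccnb2 at 4.23, with Mb and Hspa1a among those below 0.

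The genes of mitosis showed the largest shift of all lists. All 26 genes of mitosis and cytokinesis were higher at 48 h, with a median log2 difference of 3.11 and a range of 2.06 (Ndc80, a kinetochore protein) to 4.23 (Ccnb2, cyclin B2). In each of the 26, the 4 arrays at 48 h lay above the 4 arrays at 24 h, beside 15.7% of all genes. Ccnb2 was at -1.19, -0.95, -1.51 and -1.75 at 24 h (replicates 1 to 4) and at 2.87, 2.95, 2.94 and 2.78 at 48 h. The 48 h arrays lie close together and above all 24 h arrays, a difference of 4.23 ± 0.30 (SE; 18.8-fold; adjusted p = 1.51e-08). Mki67, which encodes the proliferation marker Ki-67, was at 0.72, 0.52, 0.48 and 0.18 at 24 h and at 3.84, 3.89, 3.88 and 3.54 at 48 h (3.31 ± 0.30; adjusted p = 1.11e-07). Cdk1, the kinase that cyclin B activates at entry into mitosis, was 6.82-fold higher, and Foxm1, a transcription factor that drives many of these genes, was 7.48-fold higher. Plk1 and the ubiquitin-conjugating enzyme Ube2c, which acts with the anaphase-promoting complex, were higher by 3.91 and 3.70 on the log2 scale, and Cdc20, which activates that complex, was 9.68-fold higher. Other genes of division were named by size of change alone. Cdkn3, a phosphatase of cyclin-dependent kinases, was 21.7-fold higher. Under normexp correction of the background, Cdkn3 was 9.82-fold, Cdk1 4.36-fold and Ndc80 2.26-fold higher. Nek2, a kinase of the centrosome, was well above background on 0 of 4 arrays at 24 h and on 4 of 4 at 48 h. In processed signals this gives only a lower bound of 7.44-fold (limma adjusted p = 2.46e-07). The bound does not hold under normexp background correction, where Nek2 was 2.71-fold higher. That bound sets the 48 h mean against the lowest signal well above background on each 24 h array, or the probe's own where that is higher.

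The promoters of several of these genes are shown because all members of this list moved one way and by the largest median of the 44 lists. The sequences are the 250 bases before the first base of the transcript, 5' to 3' on the gene's own strand, from the RefSeq promoter table (GRCm38.p6). Capitals mark CCAAT, the box bound by the factor NF-Y, and TTTGAA, the core of the cell cycle homology region found in many mitotic promoters, on either strand. The Ccnb2 window is chr9:70421555-70421804, minus strand; the Ccnb1 (cyclin B1) window is chr13:100786487-100786736, minus strand; and the Ube2c window is chr2:164769679-164769928, plus strand.
Ccnb2: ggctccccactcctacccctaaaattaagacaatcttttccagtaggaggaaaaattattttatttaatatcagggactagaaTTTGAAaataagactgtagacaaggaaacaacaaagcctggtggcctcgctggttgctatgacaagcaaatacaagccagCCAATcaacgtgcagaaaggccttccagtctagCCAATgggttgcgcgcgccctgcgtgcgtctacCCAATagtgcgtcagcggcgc
Ccnb1: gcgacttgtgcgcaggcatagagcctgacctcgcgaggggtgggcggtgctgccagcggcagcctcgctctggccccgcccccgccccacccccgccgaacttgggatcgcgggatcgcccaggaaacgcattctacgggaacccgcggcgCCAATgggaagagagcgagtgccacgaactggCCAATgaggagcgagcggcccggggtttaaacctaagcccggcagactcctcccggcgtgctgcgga
Ube2c: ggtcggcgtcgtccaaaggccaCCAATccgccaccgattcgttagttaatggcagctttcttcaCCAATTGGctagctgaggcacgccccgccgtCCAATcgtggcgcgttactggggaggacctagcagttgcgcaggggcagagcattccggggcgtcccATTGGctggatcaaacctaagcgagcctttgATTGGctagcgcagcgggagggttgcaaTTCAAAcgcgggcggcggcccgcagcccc
CCAAT was present in 17 of the 21 mitosis genes with a listed promoter (81%), beside 34.5% of all 27025 promoters of that table. TTTGAA was present in 8 of 21 (38.1%), beside 16.3% of all promoters. The same CCAAT letters were in 14 of 22 promoters of the replication genes described next (63.6%). A match in these letters is a description of the window and not a site. The window of Plk1, whose change lay between those of Ccnb1 and Ube2c, is not shown. It holds only a CCAAT that starts 14 bases before the transcript, and no TTTGAA. Ccnb1, whose window holds CCAAT boxes but no TTTGAA, was 17.1-fold higher at 48 h (9.98-fold under normexp correction), next to 18.8-fold for Ccnb2, whose window holds both.

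Genes of DNA replication were higher too, by less. All 25 measured genes of S phase were called, with a median of 0.89 and a range of 0.46 (Pcna, the sliding clamp of DNA polymerase) to 2.02 (Tk1, thymidine kinase). Tyms, thymidylate synthase, was at 1.45, 1.82, 1.76 and 1.42 at 24 h and at 3.22, 2.97, 3.12 and 2.98 at 48 h. All 48 h arrays were above all 24 h arrays (1.46 ± 0.15; adjusted p = 4.48e-07). Rrm2, a subunit of ribonucleotide reductase, was 3.29-fold higher, E2f1, a transcription factor of the G1/S step, 2.20-fold, and Mcm2, a subunit of the replicative helicase, 1.53-fold. The Mcm2 value at 24 h was low in replicate 1 (0.15) beside 0.63 to 0.66 on the other arrays.

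**Figure D2:**
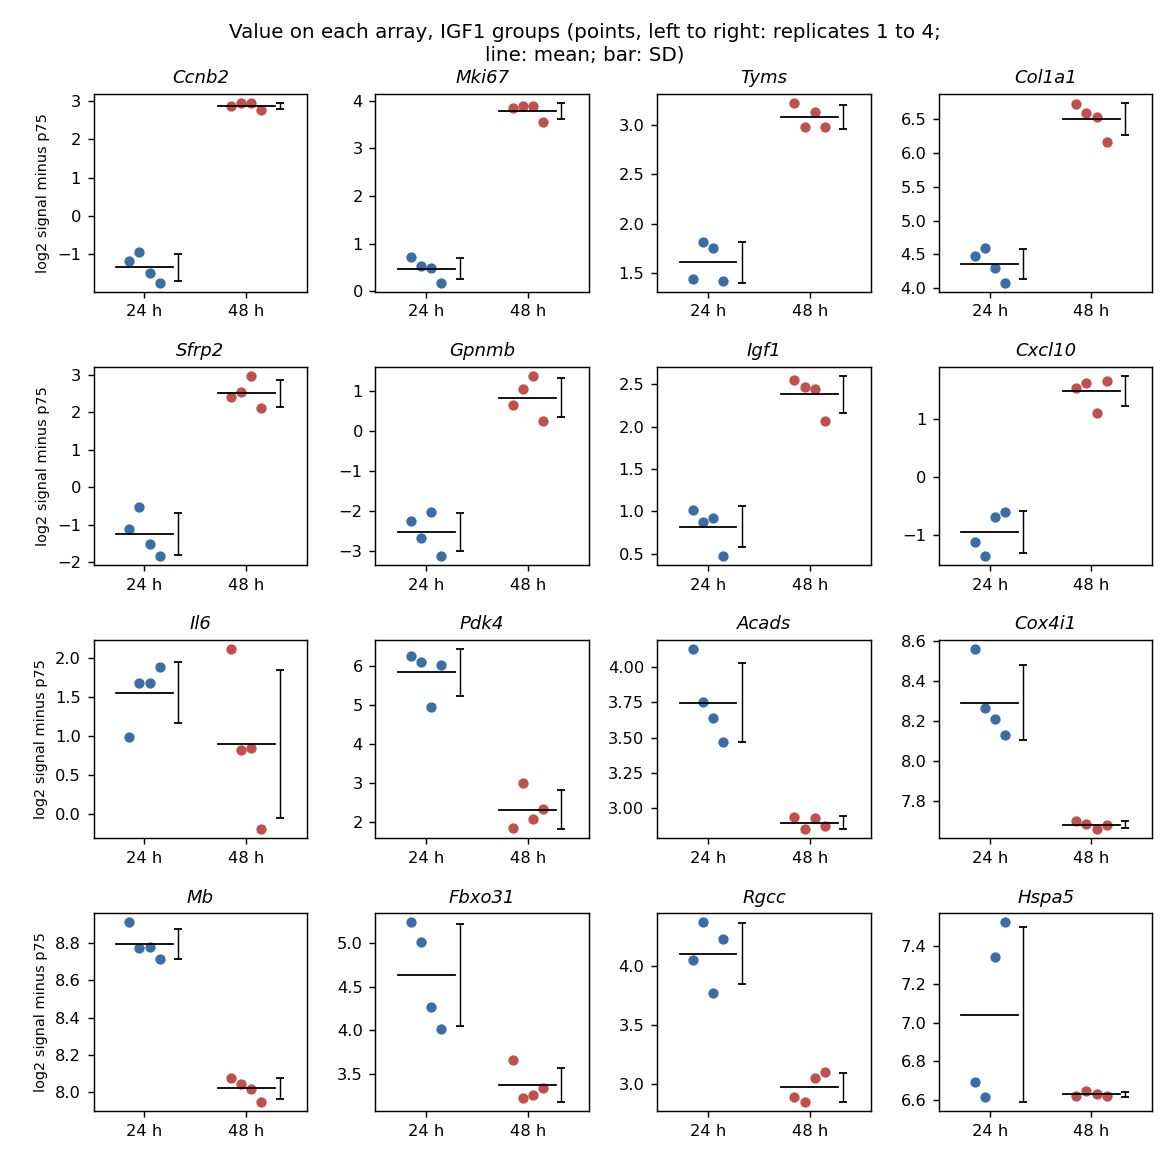
Each panel plots 1 gene, with the log2 level above the array's 75th percentile (p75) on the y axis and the 4 arrays of each IGF1 group as points; lines are means and bars are SD. The groups are separate in every panel but Il6 and Hspa5, where 48 h and 24 h arrays overlap.

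Collagen genes and the enzymes that process collagen were higher at 48 h. Of 29 genes, 26 were called higher and 0 lower, with a median of 1.04; Col11a1, Col18a1 and Plod1 did not pass. Col11a1 (adjusted p = 0.0564) passed with slide as a fixed or random block over all arrays and with array weights. It also passed with the replicate number as a block, and without replicate 1 or 2 at 24 h or replicate 4 at 48 h. Under normexp correction Col11a1 was higher by only 0.03 on the log2 scale (adjusted p = 0.929). Col18a1 passed without replicate 2 at 24 h. Col1a1, the alpha 1 chain of type I collagen, was at 4.47, 4.59, 4.30 and 4.08 at 24 h and at 6.72, 6.59, 6.53 and 6.17 at 48 h. That is a difference of 2.14 ± 0.15 (4.41-fold; adjusted p = 1.51e-08). Col1a2 was 3.67-fold higher, Col3a1 3.29-fold and Col5a1 3.28-fold. The enzymes that cross-link collagen were higher too: lysyl oxidase (Lox) was 3.93-fold and Loxl2 2.99-fold higher. P4ha3, a prolyl hydroxylase, was 5.41-fold higher by the fit, but was well above background on only 1 of 4 arrays at 24 h, and was 1.90-fold higher under normexp correction.

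Of 21 genes of myofibroblast activation, 15 were called higher and 1 lower (median 0.83). Cthrc1, a secreted collagen triple helix protein of activated fibroblasts, was at -0.11, 0.54, 0.11 and -0.22 at 24 h and at 3.52, 3.34, 3.17 and 2.70 at 48 h (3.10 ± 0.23; adjusted p = 2.22e-08). Postn, which encodes the matrix protein periostin, was at 2.70, 3.72, 3.28 and 3.29 at 24 h and at 4.99, 5.10, 4.97 and 4.62 at 48 h (1.67 ± 0.23; adjusted p = 2.01e-05). Both were higher on every 48 h array. Fap, a cell surface protease of activated fibroblasts, was 3.39-fold higher and the matrix protein gene Comp 6.82-fold (4.46-fold under normexp correction). Acta2, smooth muscle actin and the classical myofibroblast marker, was higher by only 0.25 ± 0.10, and its call (adjusted p = 0.0495) was lost under 9 of 21 alternative analyses, with an adjusted p between 0.00124 and 0.132. Scx, a transcription factor of tendon and of matrix-making fibroblasts, was lower by 0.80 ± 0.22 on the log2 scale with overlapping groups: replicate 2 at 24 h was at 2.20 and replicate 2 at 48 h at 2.22. With only the 2 slides that hold both groups, the Scx call was lost (adjusted p = 0.0931). Of 17 genes of resting fibroblasts, 7 were called higher and 2 lower, the latter 0 or 1 whenever an IGF1 array was left out. Among the higher were Tcf21 (1.92-fold), a transcription factor of cardiac fibroblasts, and the matrix proteins Dpt (1.96-fold) and Lum (1.91-fold). Pdgfra, a receptor that marks cardiac fibroblasts, did not pass (0.21 ± 0.14; adjusted p = 0.277).

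Secreted factors of the Wnt pathway included some of the largest differences outside the cell cycle. Sfrp2, a secreted Wnt-binding protein, was at -1.12, -0.53, -1.52 and -1.84 at 24 h and at 2.40, 2.54, 2.97 and 2.11 at 48 h. It was higher by 3.76 ± 0.35 (13.5-fold; adjusted p = 1.48e-07), and every 48 h array was above every 24 h array. Its relative Sfrp1 was 5.46-fold higher, Dkk3 4.60-fold and the follistatin-like Fstl1 2.53-fold. In the whole list of secreted Wnt modulators and TGF-beta family members, 9 of 27 were called higher and 2 lower, with Tgfb1 (0.10) and Tgfb2 (-0.29) among the 16 that did not pass. The lower count was 0 without replicate 4 at 24 h or replicate 3 or 4 at 48 h. Ptn, which encodes the growth factor pleiotrophin, was named by size of change and was 11.2-fold higher. Under normexp background correction Sfrp1 was 3.47-fold and Ptn 5.52-fold higher.

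Other matrix proteins were mostly higher. Of 21 proteoglycans and matricellular proteins, 12 were higher and 1 lower, with a median of 0.97. Bgn (biglycan) was 2.28-fold higher, Fbln2 (fibulin-2) 2.06-fold and Fbn1 (fibrillin-1) 1.92-fold. Has1, a hyaluronan synthase, was the member called lower, at -0.65, -0.34, -0.20 and -0.07 at 24 h and at -1.26, -1.25, -1.08 and -1.66 at 48 h (adjusted p = 0.00628). Of 19 metalloproteases and their inhibitors, 8 were higher and 4 lower. Mmp14, a membrane-bound collagenase, was 1.92-fold and Timp2 1.97-fold higher. Timp4, an inhibitor of these proteases that is rich in the heart, was at 2.42, 3.45, 2.08 and 3.27 at 24 h and at -0.27, 0.48, 0.52 and 1.68 at 48 h. It fell by 2.20 on the log2 scale (SE 0.53; adjusted p = 0.00277), with a wide spread in both groups. The count of lower metalloprotease genes was 2 without replicate 2 or replicate 4 at 24 h and without replicate 1 or 2 at 48 h.

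Macrophage genes were higher at 48 h in part. In a list of macrophages that handle lipid and make osteopontin, 12 of 24 genes were called higher and 4 lower (median 0.65). Gpnmb, a membrane glycoprotein of phagocytes, was at -2.25, -2.67, -2.03 and -3.11 at 24 h and at 0.65, 1.04, 1.38 and 0.25 at 48 h. It was 10.1-fold higher, and 5.70-fold under normexp correction (3.34 ± 0.39; adjusted p = 2.32e-06), without overlap between the groups. Trem2, a lipid receptor of macrophages, was 3.34-fold higher, the lectin Lgals3 2.55-fold and Hmox1, which degrades heme, 2.13-fold. Spp1, osteopontin itself, was at 5.98, 5.60, 5.93 and 5.13 at 24 h and at 7.03, 7.32, 7.01 and 6.74 at 48 h, and was higher on each 48 h array. Its adjusted p was 0.0284 (1.37 ± 0.47), and the call was lost with slide as a fixed block and without replicate 2 or 4 at 24 h or replicate 1, 2 or 3 at 48 h (adjusted p up to 0.0833). The 4 genes called lower in this list were Fabp4 (-0.80), Lpl (-0.57), Plin2 (-0.55) and Nr1h3 (-0.63); Plin2, which coats lipid droplets, lost its call (adjusted p = 0.0312) under 8 of 21 alternatives. Fabp4 and Lpl bind fatty acids and release them from triglyceride and are also abundant in heart vessels and muscle.

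The general macrophage genes Adgre1 and Cd68 were 2.44-fold and 2.31-fold higher. Adgre1 was at 2.25, 2.01, 2.13 and 1.64 at 24 h and at 3.31, 3.11, 3.61 and 3.15 at 48 h (adjusted p = 3.92e-06). Among 20 genes of inflammatory monocytes and macrophages 7 were higher and 4 lower, beside 16.3% and 21.3% of all genes. The list as a whole was near 0 (median 0.04). Ccr2, the chemokine receptor of these monocytes, did not pass (-0.16 ± 0.15; adjusted p = 0.456), and Itgam (CD11b), carried by neutrophils and monocytes, was lower by 0.53 ± 0.12 on the log2 scale. The lower count was 2 under quantile normalization, with no filter on dim probes, and without replicate 2 or 4 at 24 h or replicate 1 at 48 h. Of 21 genes of resident cardiac macrophages, 9 were higher and 1 lower; the lower count was 3 without replicate 3 at 48 h or with slide as a fixed block, and 2 without replicate 4 at 24 h. Stab1, a scavenger receptor, was 2.29-fold, Mrc1 (the mannose receptor) 1.72-fold and Igf1 2.95-fold higher, while the chemokine Ccl24 fell by 1.51 on the log2 scale (SE 0.41). Lyve1, a marker of one resident subset, did not pass (-0.51 ± 0.23; adjusted p = 0.0902) and passed only without replicate 3 at 48 h (0.0419). Among genes of the uptake of dead cells 10 of 21 were higher and 1 lower: C1qb was 1.90-fold higher, Cx3cr1 2.64-fold and the receptor kinase Tyro3 2.04-fold, and Cd36 was lower by 0.82 on the log2 scale.

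Neutrophil genes leaned the other way, with much scatter between arrays. Of 24 genes, 8 were called lower and 1 (Mpo) higher, beside 21.3% and 16.3% of all genes, with a median of -0.79. Cxcl3, a chemokine that draws neutrophils, was at 1.26, 2.35, 1.45 and 2.36 at 24 h and at -0.11, -0.71, -1.39 and -1.81 at 48 h. It fell by 2.86 on the log2 scale (SE 0.62; adjusted p = 0.00129). Lcn2, a siderophore-binding protein of neutrophil granules, was 3.52-fold lower (adjusted p = 0.00143), and Cd177, a neutrophil surface protein named by size of change, was 5.35-fold lower, and 2.78-fold under normexp correction. S100a8 and S100a9, which together form calprotectin, did not pass: S100a8 was at 5.93, 6.21, 6.51 and 6.67 at 24 h and at 5.79, 4.91, 5.58 and 5.87 at 48 h, just without overlap (adjusted p = 0.433). S100a8 and S100a9 passed when only the arrays compared or only the slides holding both groups were fitted (smallest adjusted p 0.0346 and 0.0156). Mpo, the granule myeloperoxidase, was well above background on only 1 of 4 arrays at 24 h, and its call (adjusted p = 0.0351) was lost under 6 of 20 alternatives. The count of lower neutrophil genes was 13 with only the arrays compared, and 5 with no filter on dim probes or without replicate 2 or 4 at 24 h or replicate 2 or 3 at 48 h.

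Of 21 neutrophil and monocyte chemokines and growth factors, 7 were higher, 3 lower and 11 did not pass. The lower count was 1 without replicate 2 or 4 at 24 h, without replicate 2 or 3 at 48 h and where dim probes were kept; array weights gave 5. Among the higher were Ccl8 (5.30-fold), Ccl4 (4.03-fold), Ccl12 (2.55-fold) and Ccl7 (2.10-fold). Ccl8 was at 0.40, 0.04, 0.38 and -0.35 at 24 h and at 3.01, 2.44, 2.81 and 1.84 at 48 h. Ccl2, the main ligand of Ccr2, was not called (0.62 ± 0.29; adjusted p = 0.0981; 0.0366 to 0.260 over the alternatives). Ccl17, a chemokine for T cells named by size of change, was 6.44-fold lower (adjusted p = 0.000206), and 4.15-fold under normexp correction.

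Counts in the cytokine lists were small, and the lists were not tested against each other. In the interleukin 6 family list 0 of 14 genes were higher and 4 lower, beside 16.3% and 21.3% of all genes. The lower count ran from 2 to 6 over the alternatives, and was 2 with only the slides that hold both groups. Il6 was at 0.98, 1.68, 1.68 and 1.88 at 24 h and at 2.12, 0.81, 0.84 and -0.20 at 48 h, with overlap and no call (adjusted p = 0.136). Replicate 1 at 48 h held the highest value of all 8, and without it Il6 was called lower (adjusted p = 0.00879). Il11 was lower by 1.78 ± 0.44 on the log2 scale, also with replicate 1 at 48 h (0.26) inside the range of 24 h; the call was lost with only the slides that hold both groups (adjusted p = 0.0944). Ctf1, cardiotrophin-1, was 1.86-fold lower without overlap. Of 20 genes of the interleukin 1 and TNF families and of prostaglandin synthesis, 8 were higher and 2 lower, and 5 and 1 with those slides; the lower count ran from 0 to 2 over the alternatives. Il33, an alarmin, was 3.28-fold higher and Il18, which inflammasomes activate, 2.14-fold, while Il1b did not pass (-0.09 ± 0.42; adjusted p = 0.880).

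Genes that type I interferon induces were mostly higher. Of 29 measured, 22 were called higher and 0 lower (median 0.82), beside 16.3% of all genes. Isg15, a ubiquitin-like protein, was at 2.22, 2.48, 2.60 and 3.09 at 24 h and at 3.72, 3.50, 3.49 and 4.68 at 48 h (1.25 ± 0.23; adjusted p = 0.000265). Every 48 h array was above every 24 h array, and in both groups replicate 4 was the highest. The mean of the list was 1.53 on replicate 4 at 48 h and 0.52 to 0.74 on the other 3 arrays, against -0.12 to 0.30 at 24 h. Ifit3b was 2.52-fold higher, Ifit3 2.42-fold and Slfn8 2.29-fold. Irf7, a transcription factor of the interferon response, was 1.89-fold higher, and Ddx58, which encodes the RNA sensor RIG-I, 1.62-fold. With only the slides that hold both groups the count of the list was 11, and the Irf7 call was lost (adjusted p = 0.0636). Leaving out 1 IGF1 array at a time gave 17 to 24. Cxcl10, a chemokine induced by interferons, had the largest difference of the list: -1.12, -1.36, -0.69 and -0.60 at 24 h and 1.55, 1.63, 1.10 and 1.67 at 48 h (5.40-fold; adjusted p = 3.25e-06).

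Promoters of Cxcl10 and Ifit3b are shown because they lead this list. Capitals mark the core of the interferon-stimulated response element, searched on both strands as GAAA, any 2 bases, and GAAA again (on the opposite strand TTTC, any 2 bases, and TTTC). The windows are the 250 bases before the transcript, chr5:92348890-92349139, minus strand for Cxcl10 and chr19:34607707-34607956, plus strand for Ifit3b (RefSeq, GRCm38.p6).
Cxcl10: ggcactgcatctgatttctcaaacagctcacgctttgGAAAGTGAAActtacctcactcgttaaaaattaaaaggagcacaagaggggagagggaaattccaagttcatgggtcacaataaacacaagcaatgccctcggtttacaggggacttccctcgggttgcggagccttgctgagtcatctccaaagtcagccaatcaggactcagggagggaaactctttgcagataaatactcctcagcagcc
Ifit3b: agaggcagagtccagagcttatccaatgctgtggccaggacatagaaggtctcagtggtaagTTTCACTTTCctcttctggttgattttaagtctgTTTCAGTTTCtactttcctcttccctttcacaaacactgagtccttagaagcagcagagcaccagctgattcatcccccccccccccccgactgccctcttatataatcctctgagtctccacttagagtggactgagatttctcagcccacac
These letters were in 13 of the 23 interferon genes with a listed promoter (56.5%), beside 3.04% of all promoters and 1 of 21 mitosis promoters.

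Genes of interferon gamma and of antigen presentation moved less. Of 25 interferon gamma genes 6 were higher and 0 lower, and 2 with only the slides that hold both groups. Of 23 genes of MHC class II and dendritic cells 3 were higher, and 1 without replicate 3 at 48 h or with only the slides that hold both groups. H2-Ab1 (0.12) and Cd74 (-0.24), the MHC class II chain and its chaperone, did not pass. Of 24 T and NK cell genes 3 were higher and 1 lower. The higher count was 1 without replicate 4 at 24 h or replicate 1 at 48 h, under normexp correction and with slide as a fixed block, and the lower count was 2 without replicate 2 at 24 h or replicate 1 or 2 at 48 h. Cd3e, part of the T cell receptor complex, did not pass (-0.03 ± 0.12), Il7r, the interleukin 7 receptor, was 2.81-fold higher and Cd4 1.35-fold lower. Siglecf, a marker of eosinophils, was 2.73-fold higher in a list of 9 eosinophil and mast cell genes with 1 higher and 2 lower.

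Genes of energy metabolism were lower at 48 h. Of 30 genes of fatty acid uptake and oxidation 27 were called lower and 0 higher, with a median of -0.83, beside 21.3% of all genes. Pdk4 is a kinase that blocks the oxidation of pyruvate in mitochondria when fat is burned. It was at 6.26, 6.11, 4.96 and 6.04 at 24 h and at 1.86, 3.02, 2.09 and 2.35 at 48 h. It fell by 3.51 on the log2 scale (SE 0.33; 11.4-fold; adjusted p = 1.89e-07), and replicate 3 was the lowest at 24 h. The thioesterases Acot1 and Acot2, which split acyl-CoA, were 4.24-fold and 3.45-fold lower. Acads, which carries out the first step of oxidation of short chains, was at 4.13, 3.75, 3.64 and 3.47 at 24 h and at 2.94, 2.85, 2.93 and 2.87 at 48 h (-0.85 ± 0.13; adjusted p = 4.39e-05). The 48 h arrays were tightly grouped and below all 24 h arrays. Acadm and Hadhb, of the medium chain and long chain steps, were 1.87-fold and 1.86-fold lower. Cpt1b, the muscle carnitine palmitoyltransferase that admits long chains to mitochondria, was 1.50-fold lower; its call (adjusted p = 0.0167) was lost with slide as a fixed block and without replicate 1 at 24 h (up to 0.0927).

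Of 32 genes of the respiratory chain and tricarboxylic acid cycle, 30 were lower and 0 higher (median -0.56). Cox4i1, a subunit of cytochrome c oxidase, was at 8.56, 8.26, 8.21 and 8.13 at 24 h and at 7.70, 7.69, 7.66 and 7.68 at 48 h (-0.61 ± 0.09; adjusted p = 2.76e-05). Cox7a1, the muscle form of another subunit, was 1.85-fold lower. Replicate 1 at 24 h was the highest array in both lists: the mean of the respiratory list was 7.24 there and 6.88 to 6.89 on the other 24 h arrays, and that of the fatty acid list 5.29 beside 4.50 to 4.89. Without it, 23 fatty acid genes and 30 respiratory genes were called lower. The means at 48 h, 3.81 to 3.98 and 6.38 to 6.44, stayed below all 24 h arrays. Of 29 glycolysis and hypoxia genes 2 were higher and 5 lower, with a median of -0.14; the lower count was 9 with array weights, 2 under quantile normalization and 3 with slide as a fixed block or without replicate 3 at 48 h.

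**Figure D3:**
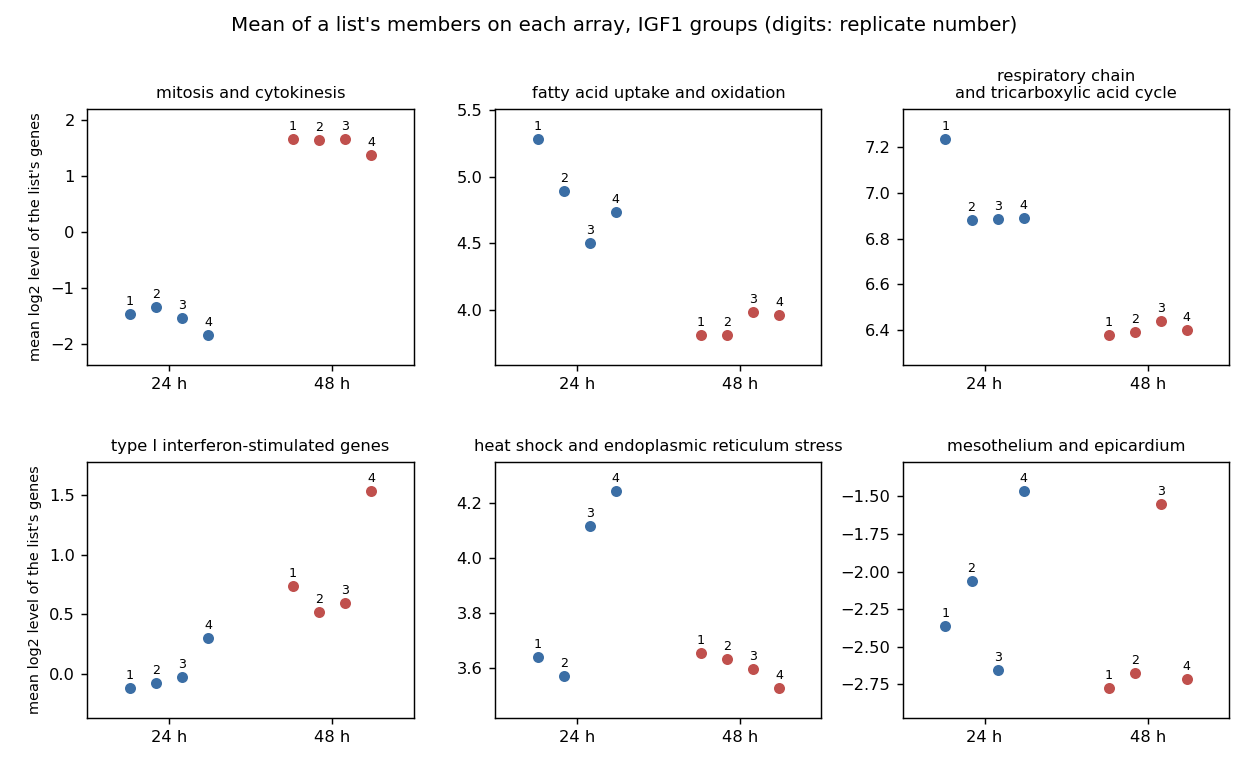
Each panel plots the mean log2 level of the genes of 1 list (y axis) on each array of the 24 h and 48 h IGF1 groups, with the replicate number above the point. Mitosis, fatty acid and respiratory genes separate the groups on every array, replicate 4 at 48 h is highest for interferon-stimulated genes (1.53), and the chaperone list is high on replicates 3 and 4 at 24 h only.

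Genes of the contractile apparatus were lower by smaller amounts. Of 26 sarcomere and other cardiac muscle genes 16 were called lower and 0 higher (median -0.46). Mb was at 8.91, 8.78, 8.78 and 8.71 at 24 h and at 8.08, 8.04, 8.02 and 7.95 at 48 h (-0.77 ± 0.10; adjusted p = 8.48e-06), with no overlap. Myl3, a ventricular myosin light chain, was 1.64-fold lower, Ckm, muscle creatine kinase, 2.16-fold and Tnni3, cardiac troponin I, 1.60-fold. Atp2a2, which pumps calcium back into the sarcoplasmic reticulum, was 1.71-fold lower. The alpha myosin heavy chain Myh6 (-0.37; adjusted p = 0.0471) and troponin T Tnnt2 (-0.35; adjusted p = 0.0351) were close to the threshold and lost the call under 12 and 8 of 21 alternatives, with an adjusted p of up to 0.482 and 0.350. The fetal gene Myh7 (0.16 ± 0.38), and the natriuretic peptides Nppa (0.03 ± 0.11) and Nppb (-0.41 ± 0.17), did not pass; Nppb passed with array weights, with the replicate block and without replicate 2 at 24 h, and Nppa as higher under quantile normalization (adjusted p = 0.00954). Ankrd2, a stretch-responsive ankyrin repeat protein, was 3.79-fold lower with overlap between the groups. Among 25 ion channel and calcium genes 1 was higher and 6 lower, beside 16.3% and 21.3% of all genes. The lower count was thus near the share over all genes. Scn4b, a sodium channel beta subunit, was at 0.98, -0.27, -0.67 and -1.01 at 24 h and at -1.79, -1.95, -1.89 and -2.14 at 48 h (adjusted p = 0.00172). That count of 6 was 3 with only the arrays compared, with only the slides that hold both groups and without replicate 3 at 48 h.

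FoxO-controlled genes are of interest because IGF1 signalling restrains FoxO factors, and the infusion ran at both times. Of 24 measured, 14 were called lower and 1 (Sesn3, 1.48-fold) higher, with a median of -0.36. Fbxo32, the muscle ubiquitin ligase atrogin-1, was at 3.05, 3.18, 2.34 and 2.23 at 24 h and at 2.07, 1.82, 1.58 and 1.47 at 48 h (-0.97 ± 0.24; adjusted p = 0.00315). Txnip, which binds thioredoxin and limits glucose uptake, was 2.55-fold lower, Fbxo31, another ubiquitin ligase subunit, 2.40-fold, and Cat, catalase, 1.72-fold. Insr and Irs2 stand in both this list and that of the IGF system, and Cat also in that of heme and antioxidant genes. The count of lower genes was 9 with slide as a fixed block, 8 with only the slides that hold both groups, and 9 without replicate 1 or replicate 4 at 24 h.

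Genes of the IGF system were called in both directions. Of 20 genes 7 were higher and 4 lower. The receptor gene Igf1r was at 2.04, 2.34, 2.34 and 2.32 at 24 h and at 2.33, 2.39, 1.93 and 2.21 at 48 h, with overlap and no call (-0.05 ± 0.16; adjusted p = 0.838). The tissue's own Igf1 was at 1.01, 0.87, 0.93 and 0.47 at 24 h and at 2.56, 2.46, 2.45 and 2.06 at 48 h (1.56 ± 0.16; adjusted p = 4.63e-07). The infused protein is not measured by the arrays. Insr, the insulin receptor, was 1.36-fold lower, and Irs2, an adaptor of both receptors, 1.37-fold lower. The binding proteins differed among themselves: Igfbp3 was 1.78-fold lower and Igfbp4 1.44-fold higher. Igf2r, which clears IGF2, was 1.38-fold higher. The calls of Insr and Igfbp3 were lost with only the slides that hold both groups (0.0575 and 0.0588), and that of Irs2 under normexp correction and without replicate 3 or 4 at 24 h (up to 0.0677). The higher count was 3 with only the slides that hold both groups and without replicate 1 at 48 h, and 4 with no filter on dim probes, with only the arrays compared, and without replicate 3 or 4 at 24 h or replicate 3 at 48 h. The lower count was 2 under normexp correction and 1 with only the slides that hold both groups.

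Of 25 endothelial genes 11 were called lower, 2 higher and 12 did not pass (median -0.31). Rgcc, a regulator of the cell cycle that is rich in capillary endothelium, was at 4.05, 4.37, 3.77 and 4.23 at 24 h and at 2.89, 2.84, 3.05 and 3.10 at 48 h (-1.13 ± 0.11; adjusted p = 2.46e-07). Kdr, the main receptor of vascular endothelial growth factor, was 1.38-fold lower and Eng, endoglin, 1.31-fold. Pecam1 (1.25-fold lower) lost its call under 8 of 21 alternatives and Cdh5, VE-cadherin (1.24-fold lower), with only the slides that hold both groups (adjusted p = 0.0664), where 6 genes of the list were called lower. The 2 members that were higher were Vcam1, an adhesion molecule for leukocytes (2.22-fold), and Aplnr, the apelin receptor (2.14-fold).

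**Figure D4:**
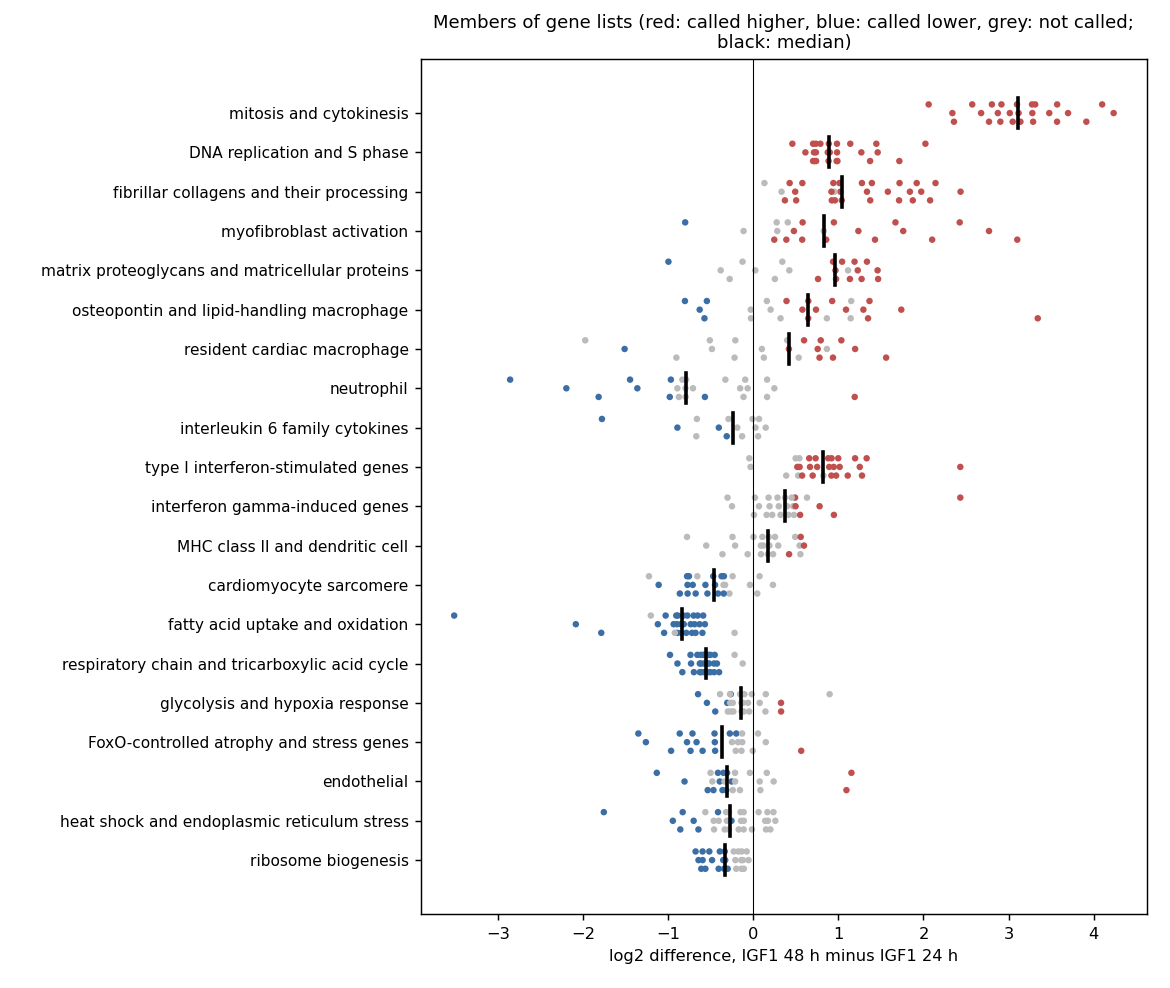
Each point is 1 gene of the list named at the left, placed by its log2 difference (48 h minus 24 h, x axis); red and blue points were called higher and lower, grey points were not called, and black bars are list medians. Medians run from 3.11 for mitosis to -0.83 for fatty acid genes, and the neutrophil, macrophage and endothelial lists hold members on both sides.

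Some stress genes were uneven among the 24 h arrays. Of 32 heat shock and endoplasmic reticulum stress genes 8 were lower and 0 higher, beside 21.3% and 16.3% of all genes. The inducible chaperone Hspa1a (Hsp70) was at 2.93, 3.78, 3.39 and 3.78 at 24 h and at 1.71, 1.73, 2.01 and 1.40 at 48 h (3.38-fold; adjusted p = 3.38e-05). Dnajb9, a co-chaperone of the endoplasmic reticulum, was 1.93-fold lower. Derl3, of the degradation of misfolded proteins and named by size of change, was 7.47-fold lower (11.9-fold with array weights). Hspa5, the chaperone BiP, was at 6.69, 6.61, 7.34 and 7.52 at 24 h and at 6.62 to 6.64 at 48 h. Replicates 3 and 4 at 24 h were high, and replicates 1 and 2 lay near the 48 h arrays: the difference was 0.02 within slide 2 and -0.72 within slide 3. At 24 h, replicates 3 and 4 were also scanned on another day than replicates 1 and 2. Its call (adjusted p = 0.0482) was lost under 13 of 21 alternatives. Creld2, of the same compartment, differed by 0.09 within slide 2 and by -1.35 within slide 3. The count of lower genes ranged from 5 to 15 over the alternatives; it was 15 with array weights or without replicate 2 at 24 h, and 5 under quantile normalization, with no filter on dim probes, with only the slides that hold both groups, and without replicate 3 or 4 at 24 h or replicate 3 at 48 h. The part of slide, of scan day and of single samples in these values was not tested.

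Genes of ribosome biogenesis were lower in 15 of 26 and higher in 0 (median -0.33). Nop14 and Wdr12, assembly factors of the small and the large subunit, were each 1.51-fold lower. The count was 8 without replicate 4 at 24 h, whose list mean of 3.23 was the highest, and 6 with only the arrays compared. Immediate early genes held 9 lower and 2 higher of 29. Arc, named by size of change, was at -0.27, 0.45, -0.02 and 1.24 at 24 h and at -1.55, -1.82, -1.75 and -1.99 at 48 h (4.36-fold lower; adjusted p = 2.8e-06). Fosb was 1.94-fold lower, the phosphatase Dusp1 1.70-fold and the factor Klf2 1.58-fold, and Egr3 was 1.86-fold higher. Of 27 genes of heme, iron and antioxidant defence 3 were higher and 11 lower. The metallothioneins Mt1 and Mt2, which bind zinc, were 1.72-fold and 1.78-fold lower. Hamp, hepcidin, was well above background on 3 of 4 arrays at 24 h and 0 of 4 at 48 h. In processed signals this gives a bound of at least 2.09-fold lower. That bound does not hold under normexp correction, where Hamp was 2.00-fold lower. Of 26 genes of cell death and p53, 7 were higher and 5 lower, and 3 in each direction with only the slides that hold both groups; the lower count was also 3 under quantile normalization and with only the arrays compared. Apaf1, which activates caspases, was 1.42-fold higher, and the death receptor gene Fas was 1.40-fold lower. Cdkn1a, the p53 target p21, was 1.77-fold lower, and its call was lost when the mean of its probes was used (adjusted p = 0.274). Calca, which encodes calcitonin gene-related peptide, was at -2.02, -0.86, -1.89 and -1.09 at 24 h and at -4.59, -5.61, -4.07 and -4.72 at 48 h. It was well above background on all 4 arrays at 24 h and on 1 of 4 at 48 h. It was called lower (adjusted p = 2.13e-05), and the size depended on the background correction: the fitted difference was -3.28, and -1.56 under normexp correction.

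Vehicle-treated samples were read at the same times. The IGF1 and the vehicle difference share no arrays, though both take their spread from 1 fit. In vehicle samples 3609 genes (22.7%) were called between 24 h and 48 h, 1776 (11.2%) higher and 1833 (11.5%) lower. With the same sign, 2421 genes were called under both treatments; 3534 were called with IGF1 alone and 1179 with vehicle alone. Being called under 1 treatment does not show a difference between treatments. That difference was tested gene by gene, as the IGF1 change minus the vehicle change: 11 genes (0.0693%) passed, and 2755 had an unadjusted p below 0.05.

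In 5 of the 7 genes named here that passed, the change with IGF1 was the more negative. Tacc2, a centrosomal coiled-coil protein also rich in muscle, was at 5.43, 5.95, 5.30 and 5.77 at 24 h and at 3.80, 3.80, 3.72 and 3.48 at 48 h with IGF1. With vehicle its mean was 4.15 ± 0.44 (SD) at 24 h and 3.99 ± 0.22 at 48 h, so the changes were -1.92 and -0.16 and differed by -1.76 (adjusted p = 0.00598). Ptp4a1 (difference -0.53), Tsacc (-0.73), S100a1 (-0.84) and Camk2b (-0.77) also changed more downward with IGF1. When the mean of its probes was used, the Camk2b difference was only -0.15 (adjusted p = 0.804). S100a1 is a calcium-binding protein of cardiac muscle. Ncapg2, a subunit of condensin II, was higher with both and by more with IGF1 (1.64 against 0.56; difference 1.07; adjusted p = 0.0334). Spns3 passed as well, but its probe was well above background on 0 of 4 IGF1 arrays at 24 h and 2 of 4 at 48 h, so no size is given, and it lost the call under normexp background correction (adjusted p = 0.272). The other 4 genes that passed are not reported here. The count of 11 ranged from 0 to 275 over the alternatives, and none of these genes kept its call under all of them, since 0 passed with only the arrays compared. It was 3 without replicate 1 and 123 without replicate 4 of the 24 h IGF1 samples, and 229 and 275 without replicate 3 of the 24 h and of the 48 h vehicle samples.

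Lists side by side show the values of both treatments, without a test of the list. The median change of the mitosis list was 3.11 with IGF1 and 1.90 with vehicle, and all 26 genes were called with both. Each of the 26 changed more upward with IGF1 (by 0.39 to 1.49), as did 7738 of all 15875 genes. In this list 0 passed the test of the difference (smallest adjusted p 0.0832). Ccnb2 was at -0.23 ± 0.84 (SD) in vehicle samples at 24 h and at -1.35 ± 0.35 with IGF1; at 48 h it was at 2.64 ± 0.32 and 2.88 ± 0.08. The S phase list had a median of 0.89 with IGF1 and 0.28 with vehicle, where 9 of 25 genes were called. The collagen list moved by 1.04 and 1.06, and Col1a1 by 2.14 and 1.83.

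The fatty acid list moved by -0.83 with IGF1 and by -0.14 with vehicle, where 1 gene was called lower and 1 higher. The respiratory list moved by -0.56 and -0.10, with 0 genes called with vehicle. All 30 and all 32 genes changed more downward with IGF1, as did 8137 of all 15875 genes. In both lists 0 passed the test of the difference (smallest adjusted p 0.0587 and 0.0859). The members were read on the same arrays, and replicate 1 at 24 h with IGF1 was the highest of its group in both lists. Acads was at 3.75 ± 0.28 (SD) with IGF1 and 3.20 ± 0.17 with vehicle at 24 h, and at 2.90 ± 0.04 and 3.05 ± 0.15 at 48 h. Pdk4 was at 5.84 ± 0.59 with IGF1 and 4.01 ± 0.57 with vehicle at 24 h and at 2.33 ± 0.50 and 2.72 ± 0.44 at 48 h. FoxO-controlled genes had a median of -0.36 with IGF1 and 0.00 with vehicle, and interferon-stimulated genes 0.82 and 0.41, with 6 of 29 called with vehicle. In the ribosome biogenesis list 23 of 26 genes were called lower with vehicle and 15 with IGF1. Il6 changed by -0.66 with IGF1 and by 1.60 with vehicle (adjusted p of the difference 0.0607).

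**Figure D5:**
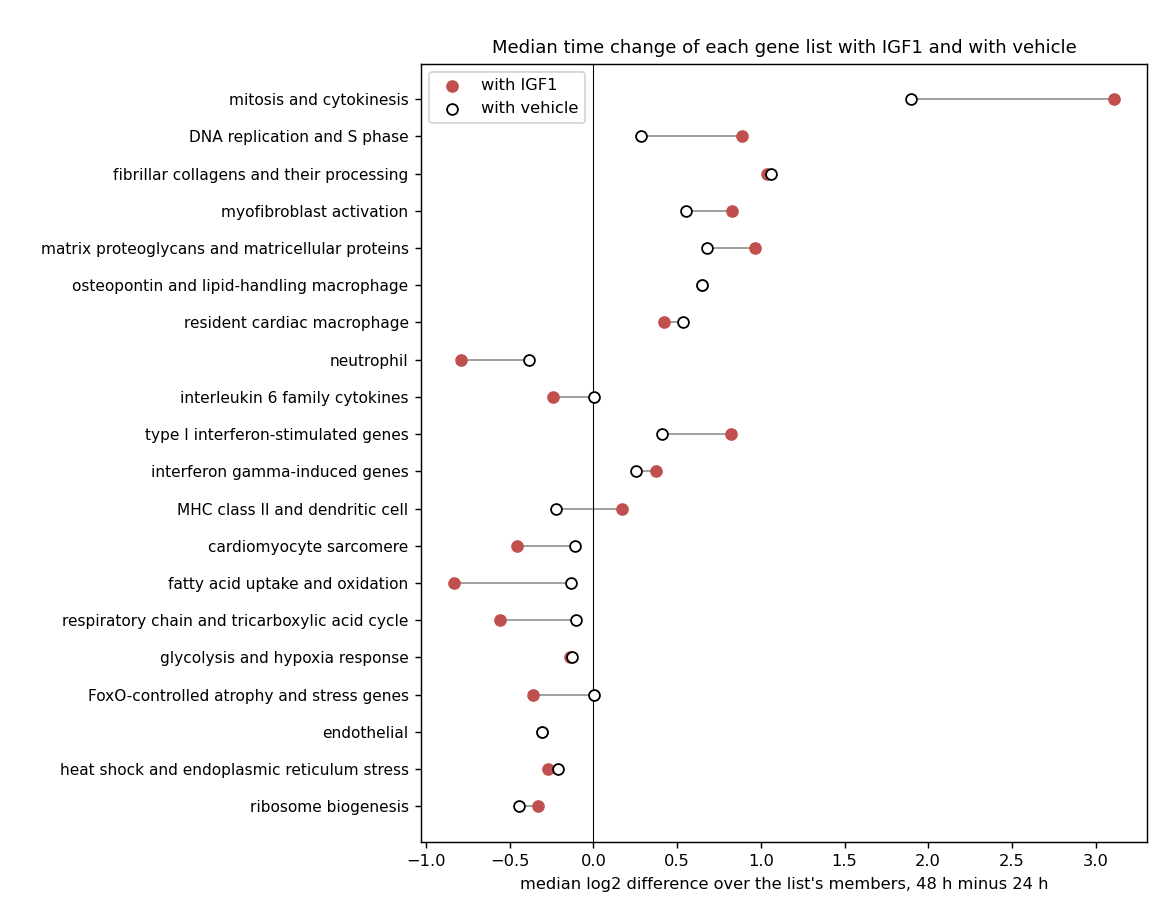
For each list at the left, the filled point is the median log2 difference between 48 h and 24 h with IGF1 and the open point that with vehicle (x axis). The points lie apart for mitosis (3.11 and 1.90), S phase and fatty acid genes, and together for collagens (1.04 and 1.06) and endothelial genes.

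Markers of other cells and tissues were read beside these lists. Of 8 hemoglobin and red cell genes 0 were called with limma; Hba-a1, a hemoglobin chain, was at 8.43 on replicate 1 at 48 h and at 6.51 to 6.77 on the others of that group. The mesothelial gene Msln was at -2.21, -1.22, -4.99 and -0.06 at 24 h and at -5.05, -5.30, -0.68 and -3.74 at 48 h, with the mean of its list highest on replicate 4 at 24 h (-1.47) and replicate 3 at 48 h (-1.55). Of 15 smooth muscle and pericyte genes 2 were higher and 2 lower, of 12 B cell genes 1 was higher, and of 8 skeletal muscle genes 2 were higher and 3 lower. Over the alternatives the higher counts of these lists ran from 1 to 4, from 0 to 2 and from 1 to 3. Of 18 complement and acute-phase genes 8 were higher and 1 (C7, of the membrane attack complex, 2.02-fold) lower; the higher count was 5 with only the slides that hold both groups and without replicate 4 at 24 h or replicate 3 at 48 h. Of 11 fat cell genes 2 were higher and 4 lower, with Scd1, a fatty acid desaturase, 2.44-fold higher and Pparg 1.62-fold lower. Of 13 Schwann cell and neuron genes 4 were higher, among them Gfra3 (2.22-fold) and S100b (1.92-fold; its call was lost with only the slides that hold both groups, adjusted p = 0.0515). With those slides 1 gene of that list was called. The part of residual blood, mesothelium, fat or nerve in the other results was not tested.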

How the data were processed

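The series holds 24 one-colour arrays in 6 groups of 4. The levels and differences of genes described are those of the 8 IGF1 and the 8 vehicle arrays of 24 h and 48 h. The filter on dim probes and the spread in the tests drew on all 24. The deposited scanner files, per the file headers from Feature Extraction (version 12.0.3.2), give the processed intensity of each spot after background subtraction. The authors deposited a log2 value table of 33957 probes as well. Set against the scanner values, it differs by a constant per probe and it was used only as an alternative; its centring is not stated, and its column medians lie between -0.056 and 0.053.

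Control spots and outlier spots were left out (53 to 130 of 59305 spots per array). Log2 intensity was centred on each array's 75th percentile, spots of a probe were averaged, and probes that 4 or more of the 24 arrays measured well above background were kept (34462 of 56605). A gene that is dim in a group may have passed through another group. Of all probes 33767 (59.7%) matched 1 RefSeq gene symbol by their transcript name, and 22838 matched none. Each of 15875 genes is represented by its brightest kept probe (5924 had several). Differences were tested with limma 3.58.1 in R 4.3.3, 1 mean per group over all 24 arrays (18 residual degrees of freedom), with Benjamini-Hochberg adjustment over all genes and a threshold of 0.05. The scripts were tested on simulated data. The number of arrays limits the precision.

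The comparison and the gene lists were chosen with earlier results of these data known. Lists share some members, so their counts are not independent. Igf1 stands among resident macrophage and IGF system genes, and Cxcl3 among neutrophil genes and chemokines. Cxcl10 stands in both interferon lists, and Hmox1 among macrophage and heme genes. Genes were named by size of change without overlap of the groups (up to 20 each way), by the smallest p within a list (up to 8) or against its direction, by the smallest p of the IGF1 against vehicle difference (up to 15), or as the defining member of a list. Ndc80, Pcna, Lox, Acadm, Irf7, Tgfb2, Col11a1, Col18a1 and Plod1 fall outside this rule and were chosen after their values were seen. Alternatives covered background correction, scaling, the filter, the probe per gene, the arrays fitted, array weights, slide, the replicate number as a block and each array left out. Figures were drawn with matplotlib 3.10.9.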

Additional observations from a re-analysis of the deposited data

Results flagged for a closer look

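On 22 of 440 groups of 4 arrays tested, 1 array lay apart from its group by Dixon's criterion. Chance alone gives about 1 in 20, so the number flagged is no larger than chance gives. Genes and list means were read on the same arrays, so the flags are not independent. Values are log2 levels.

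Replicate 1 at 24 h was the one apart in 6 cases. It was high for the energy genes Acadm (6.99) and Hadhb (7.72), for Cat (3.73) and for the mean of the respiratory chain list (7.24), and low for Mcm2 (0.15) and Igf1r (2.04). Replicate 3 at 24 h was low for Pdk4 (4.96). Replicate 4 at 24 h was low for Cd68 (3.57), Cd74 (2.77) and Mpo (-4.95).

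Replicate 4 at 48 h was low for genes of mitosis, Mki67 (3.54), Ube2c (1.76), Cdc20 (2.96), Ndc80 (-1.38) and the mean of their list (1.39), and for Fstl1 (6.16) and the mean of the MHC class II list (-0.86). It was high for Ddx58 (2.60). Replicate 3 at 48 h was high for Dpt (2.09) and for the mean of the mesothelial list (-1.55), and replicate 1 at 48 h for Myl3 (8.23) and Hba-a1 (8.43).

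In 6 named genes the change with IGF1 differed from that with vehicle by limma's test of the difference. Each had some array above background in every group compared. None kept its call under all alternatives, since 0 genes passed with only the arrays compared. The call was lost under 2 of 29 alternatives for Tacc2, 11 for Ptp4a1 and for Tsacc, 12 for S100a1, 16 for Camk2b and 14 for Ncapg2. IGF1 change minus vehicle change was -1.76 for Tacc2, -0.53 for Ptp4a1, -0.73 for Tsacc, -0.84 for S100a1, -0.77 for Camk2b and 1.07 for Ncapg2. The Camk2b value was -0.15 when the mean of its probes was used.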

How the results depend on the processing

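The count of genes higher at 48 h was 2583, and it lay between 1965 (only slides that hold both groups) and 3032 (array weights) over 21 alternatives; the count of lower genes was 3381, and lay between 2263 and 4121 under the same alternatives. With 1 IGF1 array left out, 2208 to 2533 were higher and 2739 to 3254 lower. Quantile normalization gave 50.8% higher among the calls, beside 43.3%. For the difference between 48 h and 24 h alone, 143 of 176 genes named kept direction and side of the threshold under every alternative run; the differences between IGF1 and vehicle did not. Genes that did not pass and changed sign have no direction here. With 1 IGF1 array left out, Il1b lay between -0.366 and 0.108, H2-Ab1 between -0.0531 and 0.268, Cd3e between -0.113 and 0.0257, Nppa between -0.0687 and 0.0815, and Igf1r between -0.122 and 0.0474. H2-Ab1 was -0.0075 with only slides that hold both groups, and Igf1r was 0.00507 under quantile normalization.

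The number of genes whose change differed between IGF1 and vehicle (11) moved most. It was 1 under normexp correction, 5 under quantile normalization, 7 under median centring, 3 with no filter, 36 for probes above background on all 8 arrays, 258 with array weights, 17 with slide as a fixed block and 132 as a random block (consensus correlation 0.17). It was 0 with only the arrays compared (2617 at an unadjusted p below 0.05) and 0 with only slides that hold both groups (2050). It was 3, 18, 50 and 123 without replicates 1 to 4 of the 24 h IGF1 samples, and 7, 3, 6 and 2 without those of 48 h. Chosen after seeing the data, leaving out vehicle arrays gave 7, 2, 229 and 46 at 24 h and 8, 10, 275 and 3 at 48 h. The cause was not tested.

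With the replicate block, 2732 genes were higher, 3711 lower, and 31 differed between IGF1 and vehicle (3200 at an unadjusted p below 0.05). Deviations of same-numbered arrays correlated by 0.02, -0.05, -0.07 and 0.14, so the numbers were not taken as a pairing. Among the named genes, Nppb and Col11a1 gained and Hspa5 lost the call with this block.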
